A study of Oryza sativa with 6 samples.

Results

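The ZIP family of metal transporters was examined in shoot tips of rice seedlings that lacked *OsRDR1* and in their siblings that carried it. Its members were taken by name, as every gene called ZIP or OsZIP with a number, IRT1 or IRT2 in the gene tables, with the bZIP transcription factors left out. The tables hold 12 such genes, and 10 of them (OsZIP1 to OsZIP8, OsIRT1 and OsIRT2) could be matched to the Rice Genome Array by 1 probe set each, among 17905 genes with a probe set. OsZIP9 and OsZIP10 are not analysed here.

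The *Osrdr1* group held 3 biological replicates of seedlings homozygous for a Tos17 retrotransposon in the second exon of *OsRDR1*, which encodes an RNA-dependent RNA polymerase. The WT group held 3 biological replicates of the sibling wild type, which segregated from the same heterozygous line after repeated selfing, so the mutant stands for 1 insertion line. Both genotypes are of the rice variety Hitomebore. Germination took place on water without light (2 days, 28 °C), and the seedlings were harvested after about 48 h under greenhouse conditions (26 °C, 16 h light and 8 h dark), and the growth protocol names no metal treatment. Each replicate was read on 1 Affymetrix array from 6 µg of total RNA, and the values are log2 signals after the authors' RMA normalization, in which a difference of 1 is a factor of 2 in signal.

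ZIP proteins (ZRT- and IRT-like proteins) sit in membranes and move zinc, ferrous iron and other divalent metals into the cytosol, from outside the cell or from internal compartments. In rice, OsIRT1 and OsIRT2 take up ferrous iron in roots, beside the grass route that takes up iron bound to secreted phytosiderophores, and several OsZIP proteins carry zinc into roots and between the vascular tissues that feed leaves and grain. Many members of the family are induced when zinc or iron is scarce.

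Of the 10 genes, OsZIP4 was higher and OsZIP3 lower in *Osrdr1*, and the other 8 did not pass the test. In the limma fit across all 57258 probe sets, with Benjamini-Hochberg adjustment over all of them and a threshold of 0.05 on the adjusted p, 2.08% of all probe sets were called (1.57% higher and 0.506% lower in *Osrdr1*). OsZIP3 and OsZIP4 were known to be called when the family was chosen, so the 2 calls among 10 genes give no test of the family. The median log2 fold change (*Osrdr1* minus WT) was 0.05 over the 10 genes and -0.01 over all probe sets tested, with 6 of the 10 above 0 and 45.8% of all probe sets above 0. The median absolute log2 difference was 0.12 over the family and 0.10 over all probe sets. In the plot of differences, the 2 called genes lie at opposite ends and the other 8 run from -0.28 to 0.27.

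**Figure D1:**
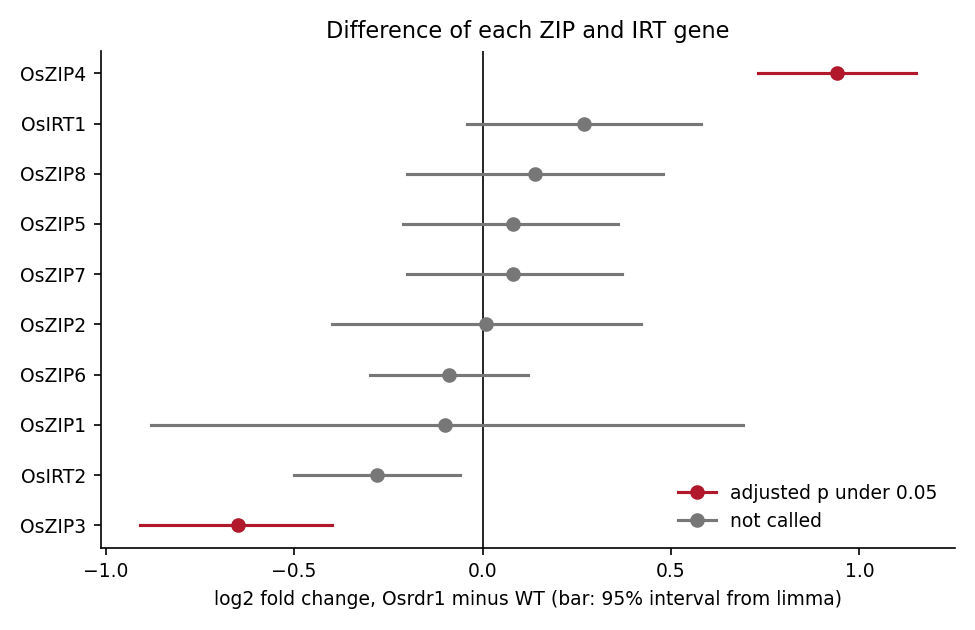
Log2 fold change (Osrdr1 minus WT, horizontal axis) of each of the 10 ZIP and IRT genes, with its 95% interval from limma as a bar. Genes are ordered from the most positive to the most negative change. OsZIP4 at 0.94 and OsZIP3 at -0.65 are coloured as called at an adjusted p under 0.05, and the 8 genes in grey are not called.

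OsZIP4 is a plasma membrane zinc transporter that, in rice, is found in the phloem of vascular bundles and in meristems and is induced by zinc deficiency. Its log2 values were 8.85, 8.62 and 8.81 in *Osrdr1* replicates 1 to 3, against 7.75, 7.84 and 7.89 in WT replicates 1 to 3. All 3 *Osrdr1* arrays lay above all WT arrays, with a gap of 0.74 between the lowest *Osrdr1* and the highest WT value, while the replicates of a genotype lay within 0.23 of each other in *Osrdr1* and within 0.14 in WT. The mean was 8.76 ± 0.12 in *Osrdr1* and 7.83 ± 0.07 in WT (SD, n = 3 each). The log2 fold change was 0.94 (standard error 0.09, 95% interval 0.73 to 1.15, adjusted p = 0.0109 from limma), a signal 1.92 times that of WT. By p-value OsZIP4 ranked at 63 of the 57258 probe sets, and 137 of the 901 probe sets called higher had a larger increase. In RNA of a whole shoot tip, more RNA per cell cannot be told apart from more cells of the type that expresses the gene.

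OsZIP3 is a zinc transporter that, in rice, unloads zinc from the xylem in the nodes so that it can be passed to developing tissues. Its log2 values were 7.27, 6.96 and 7.28 in *Osrdr1* replicates 1 to 3, against 7.91, 7.73 and 7.84 in WT replicates 1 to 3. The genotypes did not overlap, but the gap between them, 0.45, was narrower than that of OsZIP4, and *Osrdr1* replicate 2 was the lowest array. The mean was 7.17 ± 0.18 in *Osrdr1* and 7.82 ± 0.09 in WT (SD, n = 3 each). The log2 fold change was -0.65 (standard error 0.11, 95% interval -0.91 to -0.40, adjusted p = 0.0357 from limma), a signal of 63.6% of that of WT. Of the 290 probe sets called lower, 103 had a larger decrease.

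The call of OsZIP3 was closer to the threshold than that of OsZIP4. With each array centred on its median, the difference of OsZIP3 was -0.62 (limma, adjusted p = 0.0505) and that of OsZIP4 0.97 (limma, adjusted p = 0.00763). WT replicates 2 and 3 stood apart from the other arrays, where 296 and 477 probe sets differed by a factor over 2 from what the remaining WT arrays averaged, against 23 to 86 such probe sets on each of the other 4 arrays. Without WT replicate 2 the log2 fold change of OsZIP4 was 0.95 (adjusted p = 0.0459 from limma) and that of OsZIP3 -0.70 (adjusted p = 0.0971 from limma). Without WT replicate 3 they were 0.97 (limma, adjusted p = 0.0198) and -0.65 (limma, adjusted p = 0.0638). OsZIP4 was no longer called without *Osrdr1* replicate 1 (0.89, adjusted p = 0.0698 from limma), without *Osrdr1* replicate 3 (0.91, adjusted p = 0.0829 from limma) or without WT replicate 1 (0.90, adjusted p = 0.0594 from limma), and OsZIP3 was not called when any of the 6 arrays was left out. The sizes moved little across these fits, as the plot of settings shows, from 0.89 to 1.01 for OsZIP4 and from -0.71 to -0.55 for OsZIP3.

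**Figure D2:**
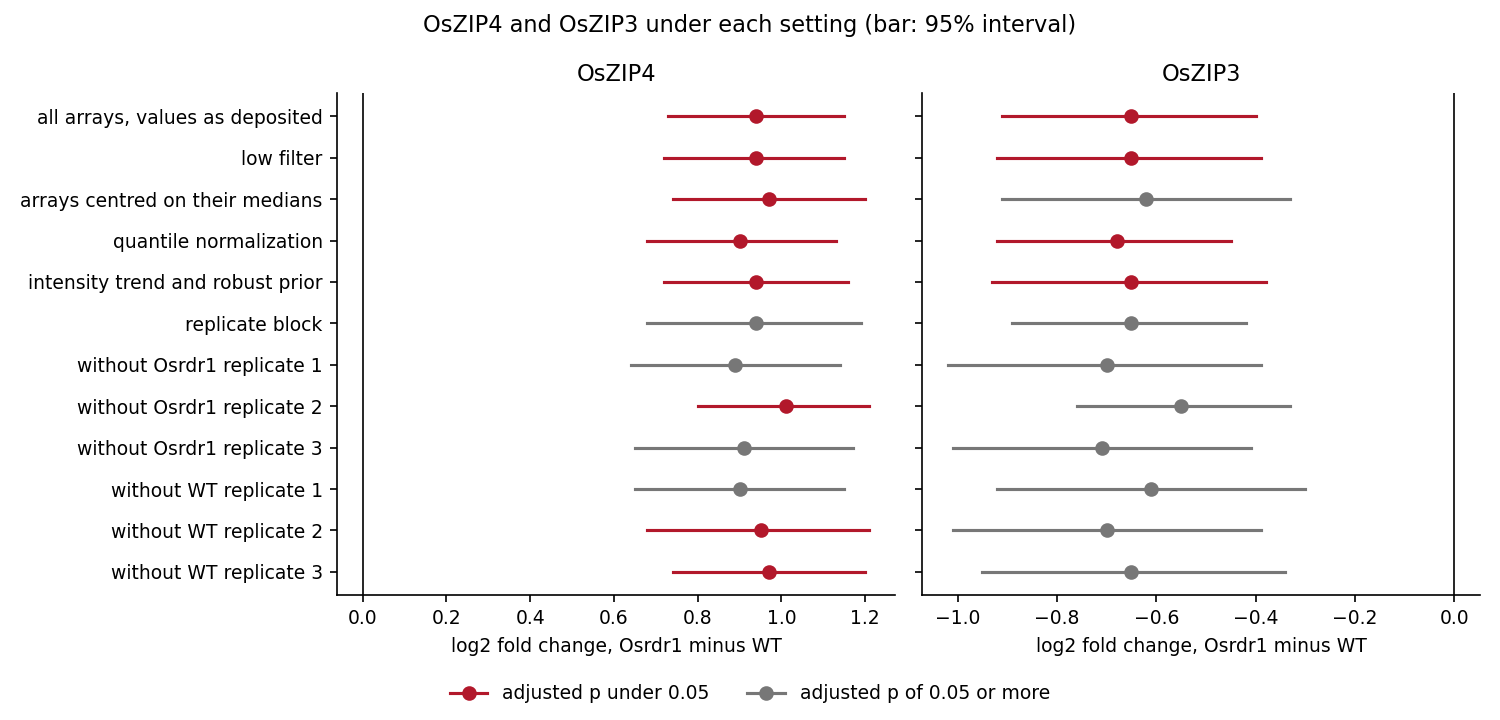
Log2 fold change (Osrdr1 minus WT, horizontal axes) of OsZIP4 and OsZIP3 in the fit of all arrays and under each alternative setting, with 95% intervals as bars. All intervals of OsZIP4 lie above 0 and all of OsZIP3 below 0, while the colour, which shows whether the adjusted p over all probe sets is under 0.05, changes between settings.

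The remaining ZIP genes with signals above the array medians differed little between genotypes. The array medians lay between 4.87 and 4.96, and OsZIP2, OsZIP5, OsZIP6 and OsZIP7 were above them on all 6 arrays, as OsZIP3 and OsZIP4 were. Values of different probe sets depend on how well their probes bind, so they order neither the genes nor their mRNAs by abundance.

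OsZIP6, which moved iron, cobalt and cadmium when it was expressed in frog oocytes, had log2 values of 8.46, 8.40 and 8.64 in *Osrdr1* and 8.66, 8.59 and 8.54 in WT. The genotypes overlapped, and its interval was among the narrowest of the family (log2 fold change -0.09, 95% interval -0.30 to 0.12, adjusted p = 0.728 from limma). OsZIP7, which acts in the loading of zinc into the xylem of rice, had 6.81, 6.51 and 6.73 in *Osrdr1* and 6.68, 6.73 and 6.39 in WT. Its log2 fold change was 0.08 (95% interval -0.20 to 0.37, adjusted p = 0.832 from limma). The gene table also lists the name OsZIP3 for OsZIP7, and the gene called OsZIP3 here is the one that carries no other ZIP number. It likewise lists OsZIP1 for OsZIP8 and ZIP2 for OsZIP5, and these genes were named by the same rule.

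OsZIP5, a transporter of zinc uptake in rice roots that lies next to OsZIP9 in the order of genes, had 5.89, 5.86 and 5.79 in *Osrdr1* and 5.66, 6.03 and 5.61 in WT. The *Osrdr1* arrays lay within 0.10 of each other and inside the range of the WT arrays (log2 fold change 0.08, 95% interval -0.21 to 0.36, adjusted p = 0.843 from limma). OsZIP2 had 6.43, 6.38 and 6.03 in *Osrdr1* and 6.00, 6.18 and 6.61 in WT, and a log2 fold change of 0.01 (95% interval -0.40 to 0.42, adjusted p = 0.987 from limma). For these 4 genes the intervals leave out changes as large as that of OsZIP4, which does not show that their levels were equal.

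**Figure D3:**
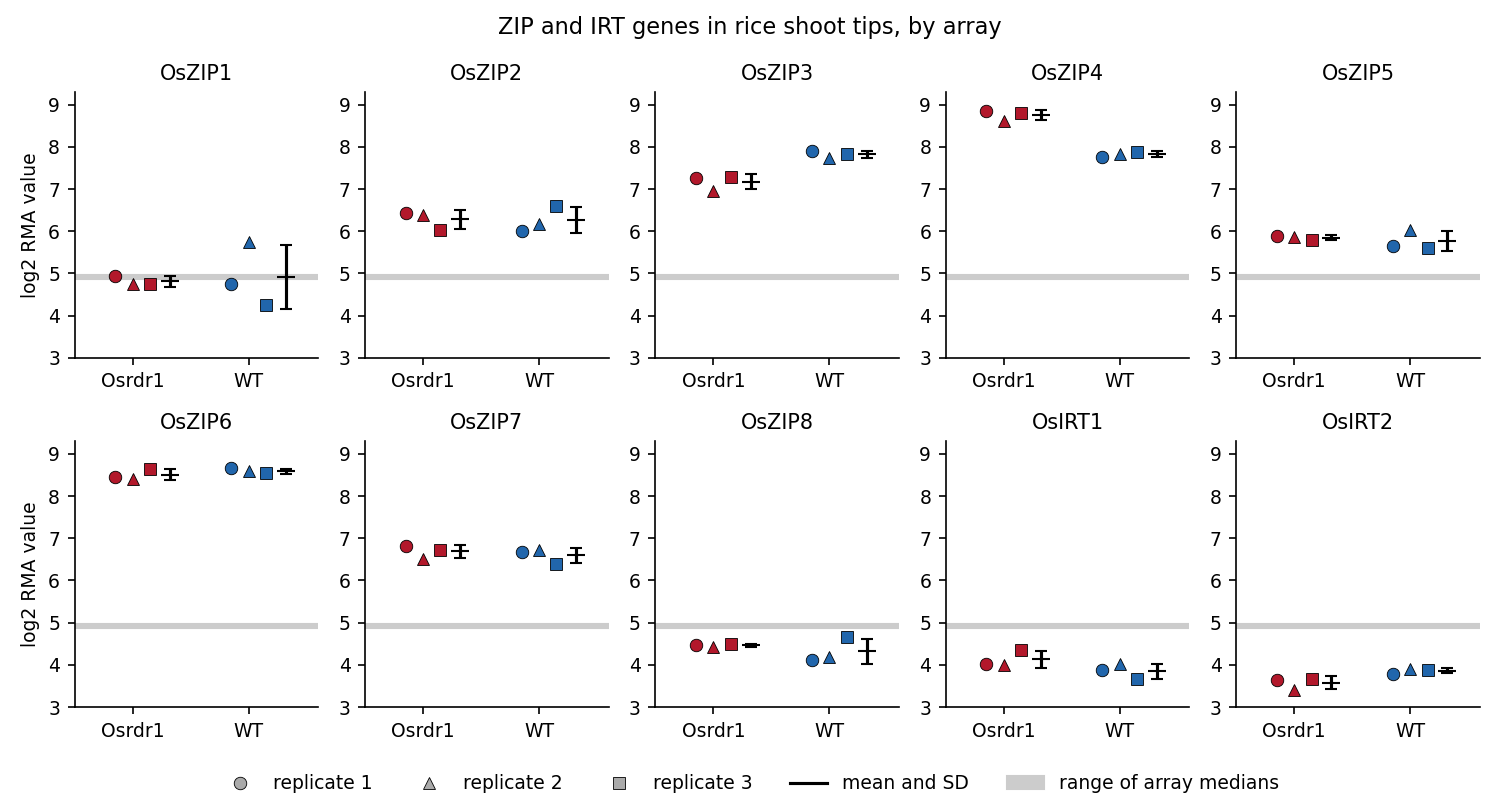
Log2 RMA value (vertical axis) of each of the 10 ZIP and IRT genes in the 3 Osrdr1 arrays (red, left) and the 3 WT arrays (blue, right), with the mean and SD beside the points, a marker shape for each replicate number, and a grey band for the range of array medians, 4.87 to 4.96. The genotypes are separate for OsZIP3, OsZIP4 and OsIRT2, and OsZIP1 spreads from 4.25 to 5.74 within WT.

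The genes of iron uptake were read near the bottom of the scale. OsIRT1, OsIRT2 and OsZIP8 lay below the array medians on all 6 arrays, where signal cannot be told from background without detection calls, so the sizes of their differences are not exact. OsIRT1, which takes up ferrous iron in rice roots, had 4.03, 4.0 and 4.36 in *Osrdr1* and 3.89, 4.01 and 3.66 in WT. The genotypes overlapped by 0.01, and the log2 fold change was 0.27 (95% interval -0.04 to 0.58, adjusted p = 0.423 from limma). OsIRT2, its close relative, had 3.65, 3.41 and 3.67 in *Osrdr1* and 3.79, 3.90 and 3.88 in WT. Its genotypes were separate by 0.12, with a log2 fold change of -0.28 (95% interval -0.50 to -0.06, adjusted p = 0.22 from limma). In the order of genes, OsIRT2 and OsIRT1 are neighbours with 2 genes between them, of which 1 codes for a protein, and their measured differences had opposite signs.

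OsIRT2 was the only gene besides OsZIP3 and OsZIP4 whose genotypes did not overlap. Such separation was found for 3 of the 10 genes, and 18.9% of all probe sets tested showed it. These 3 genes were also the ones with an unadjusted p under 0.05, which 14.3% of all probe sets reached. Since OsZIP3 and OsZIP4 were known to be called when the family was chosen, these counts give no test of the family.

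OsZIP8, a zinc transporter induced by zinc deficiency in rice, had 4.46, 4.43 and 4.50 in *Osrdr1* and 4.12, 4.18 and 4.67 in WT (log2 fold change 0.14, 95% interval -0.20 to 0.48, adjusted p = 0.752 from limma). WT replicate 3 was its highest array and the other WT arrays its lowest, and the log2 fold change was 0.31 without that array, 0.04 without WT replicate 1 and 0.07 without WT replicate 2 (adjusted p = 0.0867, 0.936 and 0.909 from limma). OsZIP1, a zinc transporter of rice roots, had 4.95, 4.74 and 4.74 in *Osrdr1* and 4.74, 5.74 and 4.25 in WT. WT held both its highest array, replicate 2, and its lowest, replicate 3, so that its SD was 0.76 in WT and 0.12 in *Osrdr1* (n = 3 each). Its interval, -0.88 to 0.69 around a difference of -0.10, was the widest of the family (adjusted p = 0.938 from limma), and the difference was 0.32 (adjusted p = 0.523 from limma) without WT replicate 2. The deposited value of OsZIP1 was the same on 3 of the 6 arrays, at 4.74.

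The replicate spread of the family was 0.04 to 0.76 (SD within a genotype) and reached at most 0.22 in *Osrdr1*. WT had the larger SD for 5 of the 10 genes. An exact permutation test of single genes with 3 against 3 arrays cannot give a two-sided p under 0.1, and OsZIP3, OsZIP4 and OsIRT2 each gave that value.

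Other genes that handle iron, zinc and other metals such as copper were read in the same fit. There, 2.08% of all probe sets were called, 14.3% had an unadjusted p under 0.05 and the median log2 fold change was -0.01. The lists of these genes were chosen with earlier results of these data known, so their counts give no test. A list of other metal transporters (NRAMP, HMA, MTP, VIT, YSL and COPT families) had 35 genes on 41 probe sets, of which 0 were called by limma, 11 were at an unadjusted p under 0.05 and the median log2 fold change was 0.10. Several of these 11 probe sets belong to 1 gene, NRAMP4, so they stand for fewer genes. The smallest p-values in it were those of MTP3, of the cation diffusion facilitator family (log2 fold change -0.50, adjusted p = 0.0674 from limma), HMA5, which loads copper into the xylem of rice (0.33, adjusted p = 0.0686 from limma), NRAMP4, of the NRAMP family (0.76, adjusted p = 0.0715 from limma), and YSL12, of the family that carries metals bound to nicotianamine (0.53, adjusted p = 0.0732 from limma). NRAMP4 was read on 5 probe sets and YSL12 on 2, of which the brightest of each is the one given, and the other probe sets ran from -0.12 to 0.87 for NRAMP4 and stood at -0.03 for YSL12.

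The list of chelators and their synthesis had 12 genes on 23 probe sets, with 0 called higher, 1 called lower and a median log2 fold change of -0.04. The gene called was NAAT1, the nicotianamine aminotransferase of phytosiderophore synthesis. It had log2 values of 4.86, 4.75 and 4.86 in *Osrdr1* and 5.52, 5.51 and 5.34 in WT, and fell by 0.63 on the log2 scale (adjusted p = 0.0194 from limma), a decrease near in size to that of OsZIP3. The *Osrdr1* values lay below the array medians, so that size is not exact. The metal-binding metallothionein MT1B, pointed out after its values were seen, had the lowest value of the list (-1.20, adjusted p = 0.338 from limma), with means of 8.33 ± 0.60 in *Osrdr1* and 9.53 ± 0.99 in WT (SD, n = 3 each) and genotypes that overlapped. The nicotianamine synthases, which make the chelator that carries zinc and iron in the phloem, had log2 fold changes of -0.19 for NAS1 (adjusted p = 0.747 from limma), -0.35 for NAS2 (adjusted p = 0.534 from limma) and 0.00 for NAS3 (adjusted p = 0.997 from limma). NAS1 lay below the array medians on all 6 arrays and NAS2 on 5, so their sizes are not exact. Both were highest in WT replicate 2, at 4.87 and 5.49, as OsZIP1 was.

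Both matched regulators of the iron response had higher values in *Osrdr1*. IDEF1, a transcription factor that in rice switches on iron deficiency genes including OsIRT1, had 9.25, 9.19 and 9.22 in *Osrdr1* and 8.77, 8.77 and 8.91 in WT. It was called higher, with a log2 fold change of 0.41 (95% interval 0.23 to 0.58, adjusted p = 0.0467 from limma), less than that of OsZIP4. Its adjusted p was nearer to the threshold than that of OsZIP3, and no probe set at all was called without *Osrdr1* replicate 1 or 3. IRO3, a repressor of that response in rice that the gene table also lists as OsIRO2, had 6.02, 6.10 and 6.21 in *Osrdr1* and 5.61, 5.37 and 5.81 in WT, and its difference of 0.52 was not called (limma, adjusted p = 0.0877). OsIRT1 itself was not called. The plot of metal genes places these lists beside the family.

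**Figure D4:**
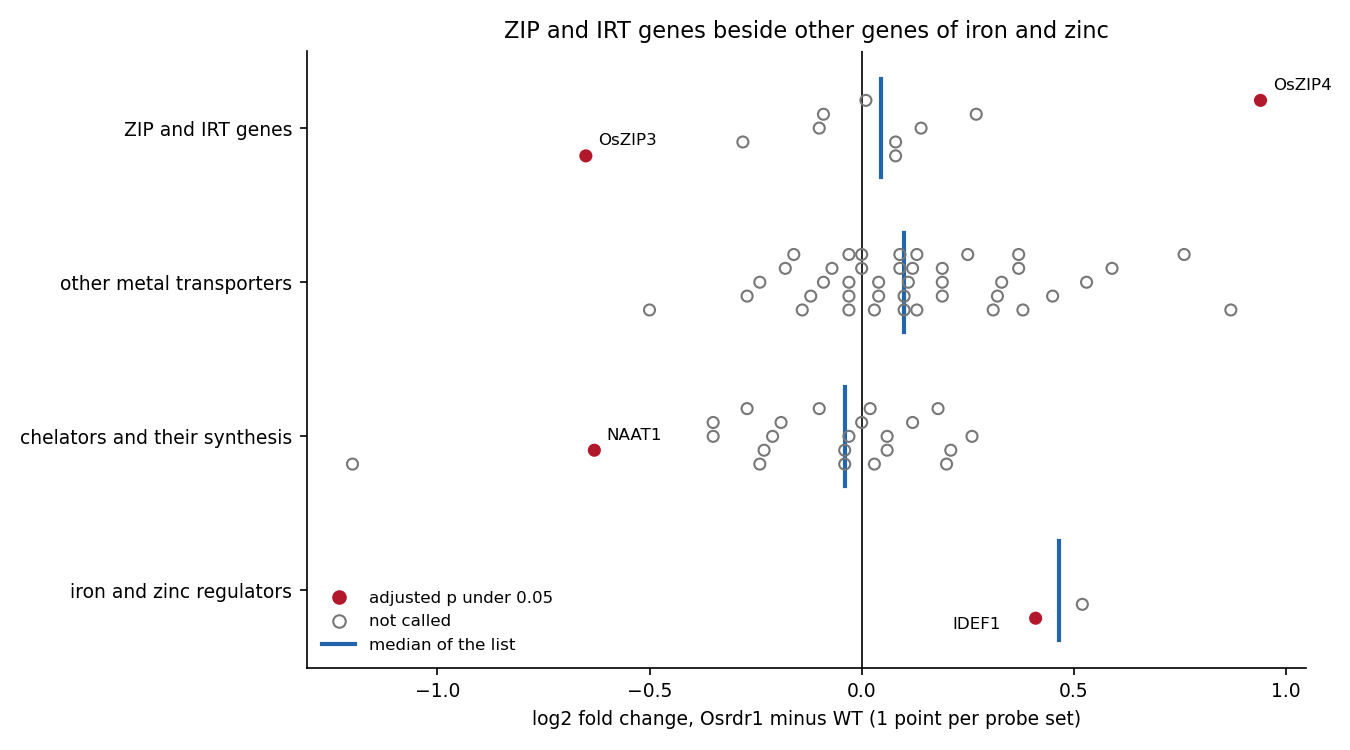
Log2 fold change (Osrdr1 minus WT, horizontal axis) of each probe set of the ZIP and IRT genes and 3 lists of other metal genes. Filled points mark an adjusted p under 0.05, and a blue line marks the median of each list. OsZIP4, OsZIP3, NAAT1 and IDEF1 are the filled points, and the medians of the first 3 rows lie between -0.04 and 0.10.

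Markers of green leaf and of the shoot meristem were read beside OsZIP4 and OsZIP3, together with those of root and seed. For scale, 1.57% of all probe sets tested were called higher and 0.506% lower. The marker lists were chosen with earlier results of these data known, so their counts give no test of a change in tissue. Among markers of the shoot meristem, 0 of 6 probe sets were called higher and 1 lower (OSH71, log2 fold change -2.43, adjusted p = 0.0457 from limma). All 6 were below 0. Those of OSH1 stood at -1.83 and -2.48 (adjusted p = 0.0617 and 0.162 from limma), and those of OSH3 and OSH43 ran from -0.17 to -0.05. OSH1 and OSH71 fell below the array median on some *Osrdr1* arrays, so their sizes are not exact. The summed signal of the meristem markers was 6.83 to 7.96 in *Osrdr1* and 8.42 to 9.79 in WT on the log2 scale. Among markers of green leaf, 4 of 9 probe sets were called higher and 0 lower (the light-induced LIR1, the chlorophyll synthesis gene PORA and 2 probe sets of the Rubisco small subunit gene). All 9 had a log2 fold change above 0, and their summed signal was 15.73 to 15.74 in *Osrdr1* and 15.27 to 15.43 in WT. Of 12 probe sets of root markers 1 was called higher (the silicon transporter LSI1), with a summed signal of 13.03 to 13.17 in *Osrdr1* and 12.49 to 12.82 in WT. Root probe sets with a log2 fold change above 0 numbered 8, and 4 were below 0, among them AMT1-2 (-0.93, adjusted p = 0.151 from limma). The root sum rests mostly on 1 bright probe set of HAK5. Of 19 probe sets of seed markers 1 was called higher (GLUA2), with 8.88 to 8.96 in *Osrdr1* and 8.76 to 9.02 in WT. Seed probe sets above 0 numbered 4 and those below 0 numbered 15, the other one of GLUA2 included (-0.11), and 13 lay below the array medians on all 6 arrays. Of the leaf probe sets 8, and those of the meristem genes OSH1 and OSH71, were read above the array medians on all WT arrays, while 1 probe set of the Rubisco small subunit gene and both of OSH43 were below the median on all 6 arrays. The sums of the 2 genotypes did not overlap for the meristem, leaf and root markers and overlapped for the seed markers. The part of these differences in those of OsZIP4 and OsZIP3 was not tested.

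The named genes whose values followed OsZIP4 most closely over the 6 arrays were found by the root mean square distance between values from which each gene's own mean had been taken, among 2422 named genes. They were pla2-II, a phospholipase (distance 0.081 on the log2 scale), HAK22, a potassium transporter (0.082), and PEX11-4, which acts in peroxisome division (0.092). For OsZIP3 they were the kinesin KIN10C (0.056), the phytosulfokine precursor gene PSK4 (0.059) and the growth-regulating factor listed as grf3 or GRF5 (0.063). The first group had log2 fold changes of 1.06, 0.81 and 1.06 and the second -0.63, -0.60 and -0.60. Since the measure follows the difference between genotypes, genes with a change of the same size come out as near, and the distances are a description over 6 arrays.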

How the data were processed

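The authors deposited log2 values of 57381 probe sets for 6 arrays, made with RMA in Affymetrix Expression Console per the labels. Its version is not stated in the sources used here, and detection calls were not used. After 123 control probe sets were left out, 57258 entered a linear model (limma 3.58.1, R 4.3.3, genotype as the only term, 4 residual and 3.32 prior degrees of freedom, Benjamini-Hochberg adjustment). No probe set was filtered or normalized again. The paper names no test for its arrays. Tables and figures came from Python 3.11.15 (pandas 2.3.3, scipy 1.17.1, numpy 2.4.6; figures by matplotlib 3.10.9). The array annotation and a RefSeq gene table (names only, since its assembly is not known to be the array's) gave 1 gene for 22436 probe sets, and several genes for 95. *OsRDR1* could not be matched by them, so no value checks the genotype labels here.

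The members and lists were chosen with earlier results of these data known. All members were described, called or separate ones per array. In the lists of metal genes, called genes were named, or else the 4 with the smallest p, and NAAT1 and the NAS genes always. BZIP50, PT2, tom1 and tom2 entries whose names belong to unrelated genes were left out, and no ferritin was matched. The planned motif search was not run. In a simulation of 57258 probe sets of which 200 were changed, the same fit recovered 69% of changes of 1 and 96% of changes of 2 on the log2 scale. It drew independent normal noise without arrays that stand apart, and no smaller changes. It also changed only 200 probe sets, while 1191 were called in the data, so the cut-off after adjustment was not the same. The simulation therefore gives no recovery for changes of the size seen for OsZIP3, and its 69% does not carry over to OsZIP4. The number of arrays, 3 for each genotype, limits the precision, and p-values cover the spread between these replicates. Alternatives changed the filter, scaling, variance model, block, fold minimum, probe sets per gene and arrays.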

Additional observations from a re-analysis of the deposited data

How the results depend on the processing

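Over all probe sets limma called 1191 (901 higher, 290 lower). It called 1981 with dim probe sets left out, 2696 with an intensity trend and robust prior, 2067 with 1 probe set per gene, 0 with the replicate block (6862 at an unadjusted p under 0.05) and 0 to 1220 when 1 array was left out (0 without *Osrdr1* replicate 1 or 3, with 6345 and 6426 at an unadjusted p under 0.05, 1 without WT replicate 1, 161 without *Osrdr1* replicate 2 and 181 without WT replicate 2). Higher ones were 75.7% of the calls, against 85.3% with arrays centred on their medians and 60.6% after quantile normalization. Of the family, 2 were called, against 1 with centred arrays, 0 with the replicate block (3 at an unadjusted p under 0.05) and 0 to 1 when 1 array was left out. Of 106 values of single genes under alternatives, 87 kept their sign and their side of the threshold, 12 (of OsZIP3 and OsZIP4) kept the sign without the call, and 7 changed sign, all in leaving out 1 array of a gene that was not called. These are OsZIP1 (-0.43 to 0.32), OsZIP2 (-0.12 to 0.18), OsZIP5 (-0.0004 to 0.21) and OsZIP7 (-0.02 to 0.17). The cause of these changes was not tested. Replicate numbers are not known to pair the arrays. The correlations of same-numbered arrays' deviations were 0.138, -0.147 and -0.271, and those of differently numbered arrays ran from -0.346 to 0.353. With the block, OsZIP4 had 0.94 (adjusted p = 0.0829 from limma) and OsZIP3 -0.65 (adjusted p = 0.0997 from limma). The filter on dim probe sets left 6 of the 10 genes, and for OsZIP1, OsZIP8, OsIRT1 and OsIRT2 the low signal limits what can be measured.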
